A study of Mus musculus with 4 samples.

Results

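Gene expression in epididymal adipose tissue was examined for 9 genes that encode secreted acute-phase and antimicrobial proteins: Wfdc17, Saa3, Lcn2, Hp, Orm1, S100a8, S100a9, Slpi and Ptx3. They were looked up by symbol, and all 9 were present among the 24421 genes of the expression matrices. The list was chosen by the fall of Wfdc17 in this same contrast, that is, by its CPM in these 4 libraries. The difference between the diet groups is therefore given for these genes as a description, and calls among them are no independent evidence. Tissue came from wild-type (WT) male C57BL/6J mice, all made obese with high-fat diet (HFD). The weight-cycling group (WC1) began HFD at 8 weeks of age, ate it for 8 weeks, spent 2 weeks on standard diet (SD) and then returned to HFD for 6 weeks. The high-fat control group (Ctrl) began HFD at 10 weeks of age and stayed on it for 14 weeks without a break. Mice of both groups had thus eaten HFD for 14 weeks and were 24 weeks old at the end. Each group had 2 poly(A) RNA-seq libraries. Nothing in the labels says whether a library held tissue of a single mouse, so the spread between libraries may be partly technical.

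The acute-phase response is the change in secreted proteins that follows inflammation, driven by cytokines such as interleukin-6 and interleukin-1 through STAT3, NF-kB and C/EBP factors. The liver makes most acute-phase proteins of plasma, but obese fat also makes several of them. Haptoglobin (Hp) captures free haemoglobin, orosomucoid (Orm1) is a lipocalin that carries small molecules, and serum amyloid A3 (Saa3) is an apolipoprotein made mainly outside the liver. S100a8 and S100a9 encode the subunits of calprotectin, a metal-binding protein of neutrophils and monocytes. Lipocalin-2 (Lcn2) withholds iron by binding bacterial siderophores, Ptx3 is a soluble pattern-recognition protein, and Slpi and Wfdc17 belong to the whey acidic protein (WAP) group of small protease-inhibitor-like proteins. Wfdc17 is known as a product of activated macrophages.

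The libraries held between 61465029 and 90965297 reads, so 3 reads corresponded to between 0.0345 and 0.0492 CPM. CPM here is the first deposited matrix, reads divided by a rescaled library size. The adipocyte markers Adipoq and Plin1 stood at 630 and 266 CPM or more in every library. Of 8 markers of epididymis epithelium, the neighbouring tissue, 6 were at 0 in all libraries, and Adam7 reached 3.02 CPM in WC1 1. Groups were compared with limma on log2(CPM + 1) over the 14106 genes that reached 0.5 CPM in 2 or more libraries, and a gene was called at an adjusted p under 0.05. Fold changes are WC1 minus Ctrl on that scale, with the standard error (SE) of the fit, and errors of means are SD with n = 2. An exact two-sided permutation test of 2 against 2 libraries cannot give a p below 0.333, so none was used for single genes.

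The 9 genes did not move together. Of the 8 that passed the filter on low values, 4 were called higher in WC1 (Saa3, Orm1, S100a8 and Hp) and 1 was called lower (Wfdc17), while Ptx3, Slpi and Lcn2 were not called. Over all tested genes 10.2% were called higher and 7.71% lower, or 17.9% in either direction. S100a9 did not pass the filter. The libraries of the 2 groups did not overlap in 6 of the 8 tested genes, against 69.3% of all tested genes. The median fold change of the 8 genes was 0.49, compared to -0.02 over all tested genes, and it lies between an ascending and a descending set rather than describing either. Without Ctrl 1 none of the 5 calls was kept by limma (0 of 5), although 3 higher genes and 1 lower gene still had an unadjusted p under 0.05. Without Ctrl 2 only Wfdc17 stayed called. edgeR and DESeq2 called the same numbers, 4 higher and 1 lower, from reads recovered from the matrix.

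**Figure D1:**
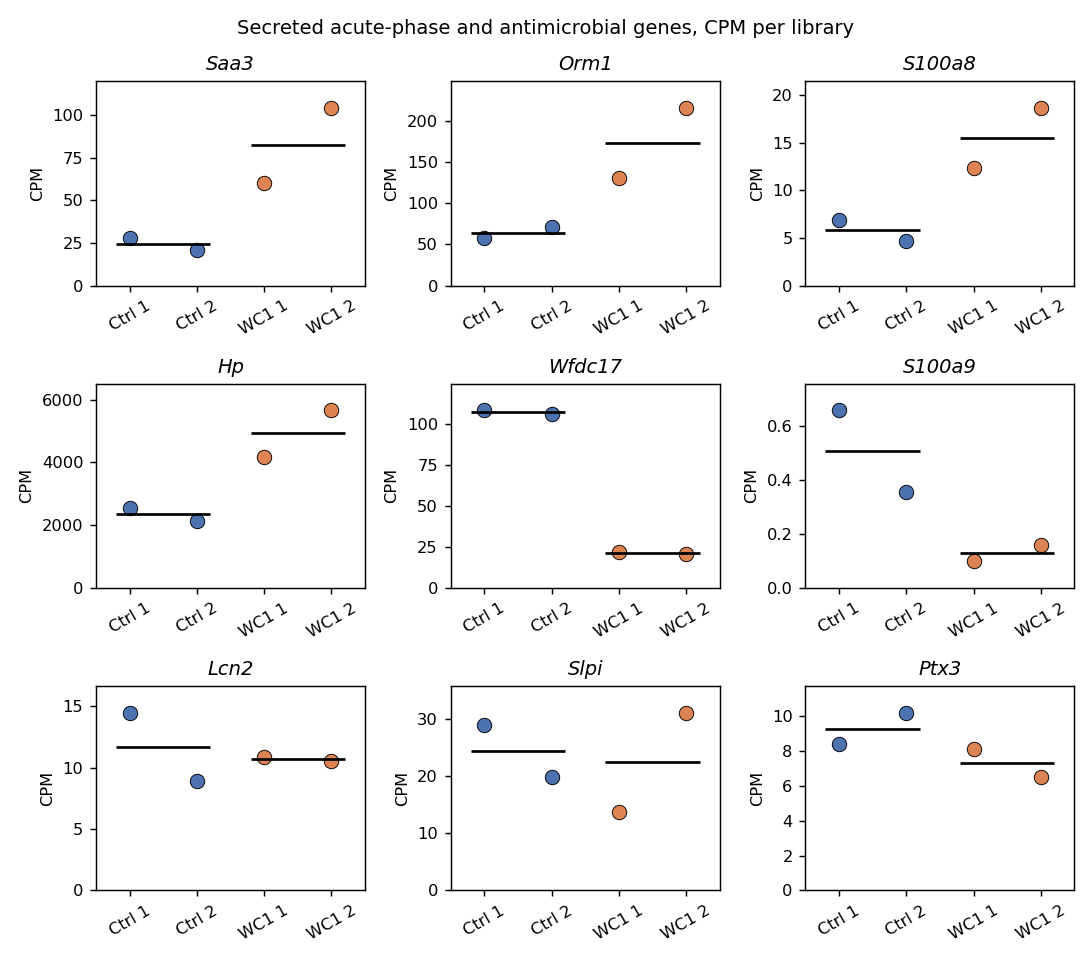
CPM of each gene in each library (points; blue Ctrl, orange WC1), with the mean of each group as a black line and a linear axis from 0 in every panel. Saa3, Orm1, S100a8 and Hp lie higher in both WC1 libraries, Wfdc17 and S100a9 lie lower, and the groups overlap for Lcn2 and Slpi.

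**Figure D2:**
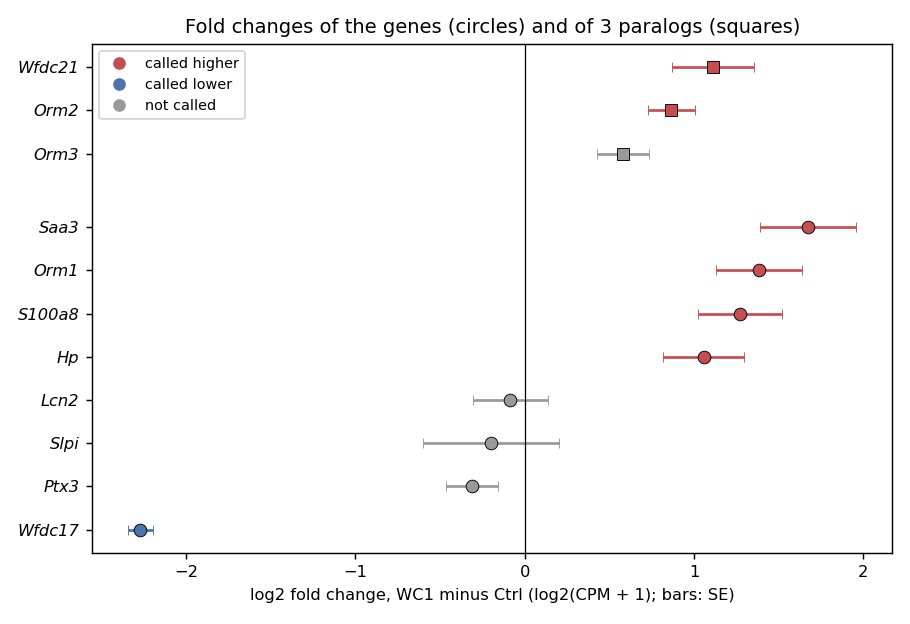
Fold changes (WC1 minus Ctrl, log2(CPM + 1)) with SE for the 8 tested genes (circles) and 3 related genes (squares), coloured by the limma call. The squares are Orm2, Orm3 and Wfdc21, and Orm3 passed the filter only through WC1, where it is high. Wfdc17 stands at -2.27, while its relative Wfdc21 stands at 1.11 on the other side of 0.

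Wfdc17 (chromosome 11, bases 83703991 to 83706268, plus strand, GRCm38; 3 exons) stood at 109 and 106 CPM in Ctrl compared with 22.2 and 20.8 CPM in WC1. The groups were far apart and the libraries of each group nearly equal. Its mean fell from 107 ± 1.7 to 21.5 ± 1.0 CPM, which is 4.99-fold lower, with a log2 fold change of -2.27 ± 0.07 (SE). Only 0.18% of the tested genes had a lower fold change. The call was lost without Ctrl 1, where the fold change was -2.25. Macrophage markers were lower too: 5 of 10 were called lower by limma and edgeR and 8 by DESeq2. None was called higher by limma, edgeR or DESeq2 (0 of 10, also at an unadjusted p under 0.05). Their summed level was 12198.5 and 11141 CPM in Ctrl against 7223 and 5141 CPM in WC1. The defining markers Adgre1 and Cd68 were themselves not called by limma (unadjusted p = 0.033 and 0.031), with fold changes of -0.59 and -0.67. In bulk tissue, fewer cells of a type and less RNA per cell cannot be told apart. Expressed as a percentage of the summed macrophage markers, Wfdc17 was at 0.89% and 0.95% in Ctrl and at 0.31% and 0.40% in WC1. These percentages carry the same CPM by which the list was chosen and are given as a description, and the part of the macrophage markers in the fall was not tested.

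The region around the Wfdc17 start is shown because 2 factors of the C/EBP family, Cebpb and Cebpd, were called lower in WC1, whereas Cebpa was not called (values further on). Promoters run from 250 bases before to 50 bases after the RefSeq start and were found in the RefSeq table (GRCm38.p6) for 7 of the 9 genes, all but Hp and Orm1. Each was searched on both strands for NF-kB (GGGNNNNNCC), C/EBP (TTNNGNAA), STAT (TTCNNNGAA), ETS/PU.1 (GAGGAA) and AP-1 (TGANTCA) letters, which 51.0%, 40.7%, 8.33%, 28.1% and 7.79% of 32544 promoters of this length hold. Capitals below mark matches to any of these. Such short patterns are common, and a match is not a binding site.
Wfdc17 promoter, chr11:83703806-83704105, plus strand: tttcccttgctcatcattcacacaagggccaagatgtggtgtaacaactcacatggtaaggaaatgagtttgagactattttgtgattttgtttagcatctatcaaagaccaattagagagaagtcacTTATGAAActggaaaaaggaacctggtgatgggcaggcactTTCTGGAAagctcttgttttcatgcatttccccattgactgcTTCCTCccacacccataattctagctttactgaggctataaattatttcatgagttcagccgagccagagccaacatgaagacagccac
Saa3 promoter, chr7:46715627-46715926, minus strand: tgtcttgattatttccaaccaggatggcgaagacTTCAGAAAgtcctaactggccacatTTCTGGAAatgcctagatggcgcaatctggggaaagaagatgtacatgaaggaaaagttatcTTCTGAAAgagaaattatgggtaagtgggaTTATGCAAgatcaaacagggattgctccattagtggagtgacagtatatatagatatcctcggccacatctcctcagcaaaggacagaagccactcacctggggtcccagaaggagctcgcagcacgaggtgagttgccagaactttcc
The Wfdc17 window held 2 C/EBP matches, at -122 and -81 from the start, and 1 ETS/PU.1 match at -39. The Saa3 window held 4 C/EBP matches, at -216, -191, -129 and -99. Each of the 7 windows held at least 1 C/EBP match, and any link of Cebpb or Cebpd to these genes was not tested. Among these 7, NF-kB letters were found for Lcn2 (at -102) and Ptx3 (at -1 and 1, overlapping).

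The 2 WAP genes next to Wfdc17 differed from each other. Wfdc21, 40.7 kb away on the same strand with Wfdc18 between them, was at 25.3 and 23.1 CPM in Ctrl compared with 41.3 and 69.1 CPM in WC1. It rose by 1.11 ± 0.24 (SE, limma adjusted p = 0.041). Wfdc18, which starts 2.75 kb past the end of Wfdc17, was barely detected, with 14 and 19 reads in Ctrl compared with 4 and 2 in WC1, which is lower in both WC1 libraries as for Wfdc17, and it was not tested. Wfdc17 made up 81.0% and 82.0% of the summed reads of the 3 genes in Ctrl and 35.0% and 23.1% in WC1. Coding sequences of Wfdc17 and Wfdc18 were 79.2% identical, with 20 bases as the longest identical run, and those of Wfdc17 and Wfdc21 were 53.6% identical, with a longest run of 6 bases. The handling of reads that fit several of these genes is unknown. Over the whole WAP list, 4 of 20 genes in the matrix were tested, 1 was called higher (25%, against 10.2% of all genes) and 0 were called lower (against 7.71%) by limma, and edgeR and DESeq2 gave the same counts. At an unadjusted p under 0.05, Wfikkn2 was also lower, from 1.62 and 1.26 to 0.31 and 0.83 CPM (limma adjusted p = 0.086).

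Haptoglobin (Hp, chromosome 8, bases 109575128 to 109579172, minus strand) was the most abundant of the 9 genes. It stood at 2553 and 2145 CPM in Ctrl compared with 4183 and 5666 CPM in WC1. Both WC1 libraries were above both Ctrl libraries, and the mean was 2.10-fold higher, with a log2 fold change of 1.06 ± 0.24 (SE). Adipocyte markers were higher as well: 6 of 8 were called higher, none was at 0, and their summed level was 9692.5 and 10837 CPM in Ctrl and 17454.5 and 22515 CPM in WC1. Endothelial markers also moved with Hp, with 5 of 6 called higher and sums of 399 and 438 CPM in Ctrl compared with 787 and 996 CPM in WC1. As a percentage of the adipocyte sum, Hp was at 26.3% and 19.8% in Ctrl and at 24.0% and 25.2% in WC1. The groups overlapped on this measure. Against the macrophage and mesothelial sums Hp was 4.18-fold and 2.34-fold higher in WC1, without overlap, and the part of any cell type in the difference was not tested. Hp was called in limma only with both Ctrl libraries, with fold changes of 1.18 without Ctrl 1 and 0.93 without Ctrl 2.

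**Figure D3:**
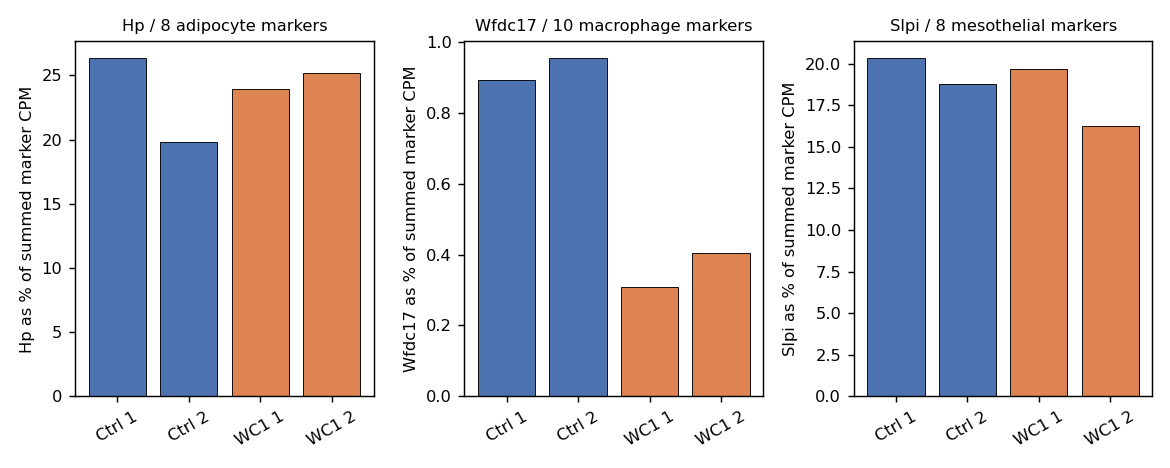
Hp, Wfdc17 and Slpi in each library as a percentage of the summed CPM of 8 adipocyte, 10 macrophage and 8 mesothelial markers (linear axes from 0; blue Ctrl, orange WC1). Hp stays between 19.8% and 26.3% in all libraries and Slpi between 16.3% and 20.3%, whereas Wfdc17 drops from 0.89% or more to 0.40% or less.

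Orm1 (chromosome 4, bases 63344560 to 63348163, plus strand) was at 57.3 and 71.2 CPM in Ctrl compared with 131 and 216 CPM in WC1. The WC1 libraries lay well above the Ctrl libraries but differed from each other, and the mean was 2.70-fold higher (log2 fold change 1.38 ± 0.25, SE). Its call was lost without Ctrl 1 (1.23) and without Ctrl 2 (1.54). The 2 other orosomucoid genes lie beside it, Orm3 8.00 kb and Orm2 14.3 kb away. Orm2 was at 2.43 and 3.14 CPM in Ctrl compared with 5.98 and 5.75 CPM in WC1 and rose by 0.87 ± 0.14 (limma adjusted p = 0.024). Orm3 was counted with 13 and 21 reads in Ctrl compared with 40 and 63 in WC1. It passed the filter on low values only through WC1, where it is high, so no fold change is given. The Orm1 coding sequence was 89.9% identical to Orm2, with an identical run of 104 bases, so small values of Orm2 and Orm3 may hold reads of Orm1. Orm1 took between 95.2% and 97.0% of the reads of the 3 genes in every library. Relative to the adipocyte markers Orm1 was at 0.59% and 0.66% in Ctrl and at 0.75% and 0.96% in WC1, a smaller difference than in CPM but still without overlap.

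Saa3 (chromosome 7, bases 46711998 to 46715700, minus strand), whose promoter is printed above, was at 27.9 and 21.0 CPM in Ctrl compared with 60.4 and 104 CPM in WC1. It showed the steepest increase of the 9 genes, with a mean 3.37-fold higher and a log2 fold change of 1.67 ± 0.28 (SE), and only 0.20% of tested genes had a higher one. WC1 2 carried more of it than WC1 1, and the fold change was 1.28 without WC1 2 and 2.06 without WC1 1. The call was lost without Ctrl 1 (1.87) and without Ctrl 2 (1.48). Saa1 and Saa2, the liver-type genes of the cluster, were at most at 0.52 and 0.15 CPM, and Saa3 took between 97.9% and 99.6% of the reads of the 3 genes. Relative to the adipocyte markers Saa3 was at 0.29% and 0.19% in Ctrl and at 0.35% and 0.46% in WC1, without overlap. Markers of hepatocytes were low and unequal within the groups, with Alb at 4.36 and 16.2 CPM in Ctrl compared with 2.82 and 8.13 CPM in WC1. Of the 5 tested markers, 0 were called by limma, edgeR or DESeq2, or had an unadjusted p under 0.05. All 5 had a fold change below 0, and the limma fit with a replicate block, described further on, called 2 lower.

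The calprotectin subunits had unlike values, with S100a9 resting on few reads. S100a8 (chromosome 3, bases 90668978 to 90670035, plus strand) was at 6.93 and 4.70 CPM in Ctrl compared with 12.4 and 18.7 CPM in WC1. The groups did not overlap, the mean was 2.67-fold higher and the log2 fold change was 1.27 ± 0.25 (SE), lost as a call without Ctrl 1 (1.51) and without Ctrl 2 (1.03). S100a9 lies 22.6 kb away on the minus strand (bases 90692632 to 90695721), with no other coding gene between them. It was counted with 45 and 31 reads in Ctrl compared with 6 and 10 in WC1, or 0.66, 0.36, 0.10 and 0.16 CPM. The exact 95% Poisson intervals, which cover counting error only, were 0.48 to 0.88 and 0.24 to 0.51 CPM in Ctrl and 0.036 to 0.21 and 0.076 to 0.29 CPM in WC1. They overlapped between Ctrl 2 and WC1 2. S100a9 was not called with either looser filter on low values. How the reads of these genes were counted is unknown, and both are usually made by the same cells, so the low S100a9 values need care. In TPM, which accounts for transcript length, S100a8 exceeded S100a9 by a ratio of 14.3 and 17.7 in Ctrl and of 179 and 159 in WC1.

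The start regions of both genes are shown because the neighbours differed in level and direction, with capitals marking the same patterns as before.
S100a8 promoter, chr3:90668821-90669120, plus strand: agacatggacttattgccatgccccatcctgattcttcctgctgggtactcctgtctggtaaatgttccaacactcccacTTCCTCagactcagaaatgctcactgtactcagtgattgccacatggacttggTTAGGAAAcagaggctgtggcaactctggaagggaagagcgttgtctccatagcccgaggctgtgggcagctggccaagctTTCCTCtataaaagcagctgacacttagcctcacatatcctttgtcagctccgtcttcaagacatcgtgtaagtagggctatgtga
S100a9 promoter, chr3:90695672-90695971, minus strand: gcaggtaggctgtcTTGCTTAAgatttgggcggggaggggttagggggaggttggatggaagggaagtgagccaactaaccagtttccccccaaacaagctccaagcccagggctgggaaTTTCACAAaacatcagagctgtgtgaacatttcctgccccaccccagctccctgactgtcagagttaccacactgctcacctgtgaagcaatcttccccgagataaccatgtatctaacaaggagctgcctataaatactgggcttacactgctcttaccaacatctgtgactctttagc
The S100a8 window held 1 C/EBP match (at -117) and 2 ETS/PU.1 matches (at -170 and -36). The S100a9 window held 2 C/EBP matches (at -236 and -130) and none of the other patterns.

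Neutrophils, the usual main source of both subunits, gave few reads. Of 12 neutrophil markers, 11 were in the matrix, and Ngp and Stfa2l1 were at 0 in all libraries. Camp was at 0 in both Ctrl libraries and WC1 1 and at 0.048 CPM in WC1 2, and Cxcr2, Mpo and Elane did not exceed 0.351 CPM. Cxcr2 had 24 and 22 reads in Ctrl compared with 9 and 4 in WC1. Elane was not lower, at 0.22 and 0.21 CPM in Ctrl and 0.23 and 0.24 CPM in WC1. Retnlg, Cd177 and Mmp8 are named after their values were seen. Retnlg had 14 and 7 reads in Ctrl and 0 in both WC1 libraries, and Cd177 had 41 and 19 compared with 8 and 7. Mmp8 was at 0.98 and 0.88 CPM in Ctrl compared with 0.74 and 0.13 CPM in WC1. Ltf was at 0.48, 0.53, 0.61 and 0.46 CPM in Ctrl 1, Ctrl 2, WC1 1 and WC1 2. The markers summed to 15.3 and 16.8 CPM in Ctrl and 13.1 and 12.1 CPM in WC1, most of it Csf3r, and were not higher in WC1. None of the 3 tested markers was called by limma, edgeR or DESeq2 (0 of 3, also at an unadjusted p under 0.05). Of 8 monocyte markers, 1 was called higher and 3 lower. Of 4 B cell markers 1 was called higher by limma and edgeR and 3 by DESeq2. Their sum was 4.31 and 2.59 CPM in Ctrl compared with 7.24 and 26.4 CPM in WC1. In limma the call was lost with a pseudocount of 2, median-of-ratios scaling, quantile normalization or no filter on low values. Erythroid markers summed to 26.9 and 150.3 CPM in Ctrl and to 216 and 209 CPM in WC1, with 0 of 3 tested called by limma or edgeR, 1 higher by DESeq2 and 1 higher at an unadjusted p under 0.05. T and NK cell markers were at 7.35 and 4.34 CPM in Ctrl compared with 4.24 and 7.09 CPM in WC1, with 0 of 5 called by limma, edgeR or DESeq2 or at an unadjusted p under 0.05. The part of these cells in the S100a8 values was not tested. As a percentage of the adipocyte markers S100a8 was at 0.072% and 0.043% in Ctrl and at 0.071% and 0.083% in WC1, and the groups overlapped on this measure. Against the summed macrophage and mesothelial markers, by contrast, S100a8 was 5.41-fold and 2.95-fold higher in WC1, and the groups did not overlap.

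No other tested S100 gene was called higher with S100a8. Of 11 tested genes of the S100 list, which includes S100pbp, an S100-binding protein, 4 were called lower (36.4%, against 7.71% of all genes), 0 higher and 7 were not called, and 4 had a fold change above 0. Of these, S100g passed the filter only through WC1, where it is high. At an unadjusted p under 0.05, 1 was higher in limma, S100g itself, and 5 were lower. edgeR called 0 higher and 4 lower, and DESeq2 0 and 5. S100a4, known from fibroblasts and macrophages, was at 511 and 435 CPM in Ctrl compared with 207 and 157 CPM in WC1 and fell by 1.38 ± 0.16 log2 units (limma adjusted p = 0.016). Of 8 fibroblast markers 3 were called lower, with 0 called without Ctrl 1 or without Ctrl 2, and their summed level was 9351 and 9046 CPM in Ctrl compared with 8211 and 6386 CPM in WC1. S100a6, another calcium-binding S100 protein, fell by 0.84 ± 0.15 (limma adjusted p = 0.027). S100a1 and S100a13 were also lower, with fold changes of -1.04 and -0.38. Without Ctrl 1 or Ctrl 2 none of these 4 calls was kept (0 of 4), with S100a4 at -1.27 and -1.50.

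**Figure D4:**
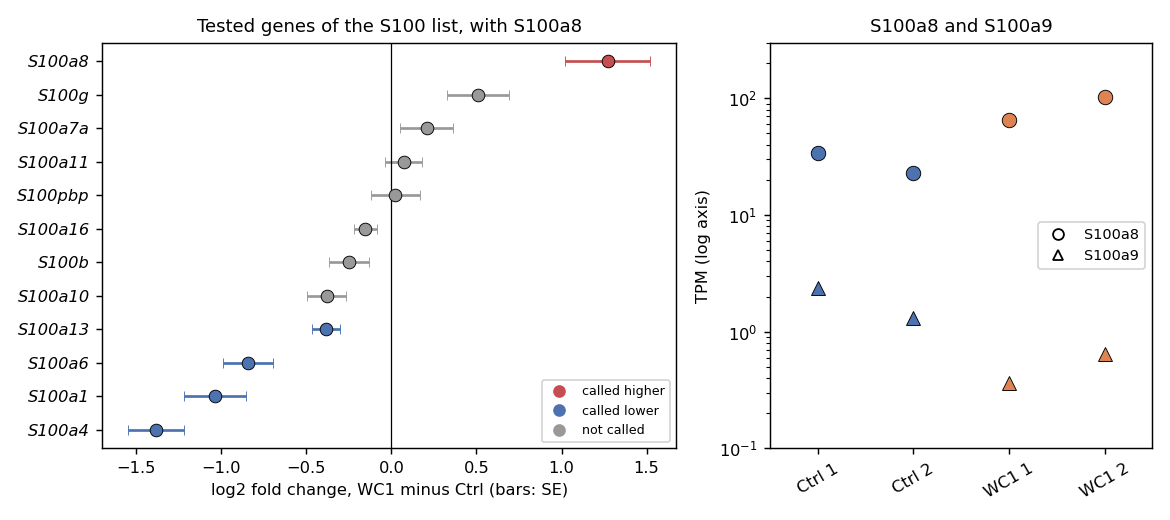
Left, fold changes (WC1 minus Ctrl, log2(CPM + 1)) with SE for the tested genes of the S100 list and S100a8, coloured by the limma call. Right, TPM of S100a8 and S100a9 in each library on a log axis: S100a8 is higher and S100a9 lower in both WC1 libraries (blue Ctrl, orange WC1).

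Lcn2, Slpi and Ptx3 were not called. Lcn2 (chromosome 2, bases 32384633 to 32388252, minus strand), which starves bacteria of iron, was at 14.5 and 8.91 CPM in Ctrl compared with 10.9 and 10.5 CPM in WC1. The WC1 libraries lay between the Ctrl libraries, and the log2 fold change of -0.08 ± 0.22 (SE) changed sign to 0.24 without Ctrl 1 and to 0.05 in TPM. Ptx3 (chromosome 3, bases 66219910 to 66225805, plus strand, overlapping Veph1 on the opposite strand) was at 8.39 and 10.2 CPM in Ctrl compared with 8.11 and 6.50 CPM in WC1. Both WC1 libraries were lower, but by little, with a log2 fold change of -0.31 ± 0.15 (SE).

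Slpi (chromosome 2, bases 164354070 to 164389095, minus strand), an inhibitor of neutrophil elastase and cathepsin G, varied within the groups more than between them. It was at 29.0 and 19.8 CPM in Ctrl compared with 13.7 and 31.1 CPM in WC1, so the lowest and the highest library were both WC1. The gap between the WC1 libraries on the log2 scale, 1.12, exceeded that of 99.2% of tested genes, and the log2 fold change was -0.20 ± 0.40 (SE). It was 0.07 without Ctrl 1 and 0.36 without WC1 1. Markers of mesothelium, the epithelial sheet that covers the fat pad and is known to express Slpi, ranked the libraries in the same order when summed. Their summed level was 143 and 105 CPM in Ctrl and 70.0 and 191 CPM in WC1, and Msln was at 23.1, 13.8, 12.1 and 33.7 CPM and Upk3b at 47.8, 34.9, 21.1 and 64.3 CPM in Ctrl 1, Ctrl 2, WC1 1 and WC1 2. Not every marker kept that order: Wt1 was at 15.0, 15.0, 8.28 and 14.3 CPM and Krt19 at 7.97, 6.38, 6.92 and 17.0 CPM. As a percentage of the summed mesothelial markers, Slpi was at 20.3%, 18.8%, 19.6% and 16.3% in these libraries. None of the 8 markers was called by limma, edgeR or DESeq2 (0 of 8, also at an unadjusted p under 0.05).

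Per transcript length, the order of the 9 genes was led by Hp, with a mean of 3353 ± 388 TPM in Ctrl and 7772 ± 1825 TPM in WC1 (SD, n = 2). Hp held 81.5% and 79.6% of the summed TPM of the 9 genes in Ctrl and 88.7% and 87.1% in WC1. In Ctrl Wfdc17 came next, at 440 ± 4.0 TPM, ahead of Orm1 at 161 ± 26 and Saa3 at 88.4 ± 17 TPM. In WC1 the order turned, with Orm1 at 480 ± 176 and Saa3 at 330 ± 131 TPM ahead of Wfdc17 at 97.1 ± 2.4 TPM. Over all 4 libraries the ranges of Orm1, Wfdc17 and Saa3 overlapped, as did those of the neighbours Saa3 and S100a8 and those of S100a8 and Slpi. Lcn2 lay between 20.2 and 32.4 TPM, Ptx3 between 7.26 and 10.3 TPM and S100a9 at 2.36 TPM or less. Each was clear of its neighbours in the order over all 4 libraries. S100a8, at 33.8 and 23.1 TPM in Ctrl, nevertheless overlapped the range of Lcn2.

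Other acute-phase genes were then examined from a list of 28, of which 17 were tested. Of these, 6 were called higher (35.3%, against 10.2% of all genes) and 3 lower (17.6%, against 7.71%). The median fold change was 0.32, which includes Orm3, a gene that was not called and passed the filter only through WC1. The 2 with the smallest p were Mt1 and Orm2. Mt1, a zinc-binding metallothionein, was at 148 and 163 CPM in Ctrl compared with 92.0 and 81.8 CPM in WC1 and fell by 0.83 ± 0.09 log2 units (limma adjusted p = 0.015). The other called genes are named here after their values were seen. Lbp, which binds lipopolysaccharide, rose by 1.09, Agt (angiotensinogen) by 1.05, Serpina3n (a protease inhibitor) by 0.91, Cfb (complement factor B) by 0.85 and Hpx (hemopexin, which binds heme) by 0.71. Mt2 (-0.80) and Cd14 (-0.64), the co-receptor to which Lbp passes its ligand, were lower. In TPM, where the median of all genes was 0.10, 7 were called higher and 1 lower. As for the other lists, these calls needed both Ctrl libraries: without either of them, 0 of the 35 called genes of the pathway lists stayed called. The same held for the adipocyte, endothelial, macrophage, monocyte and mast cell markers given above and further on, of which 0 were called without Ctrl 1 or without Ctrl 2, and with no filter on low values 0 adipocyte and 5 endothelial markers were called higher, and 2 macrophage, 2 monocyte and 5 mast cell markers lower.

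Of 30 tested genes for the cytokines, receptors and transcription factors upstream of these proteins, 1 was called higher (3.33%, against 10.2% of all genes) and 7 lower (23.3%, against 7.71%). edgeR called 1 higher and 6 lower, and DESeq2 2 and 9. Cebpd, a C/EBP factor induced in the acute phase, was at 39.4 and 47.0 CPM in Ctrl compared with 18.0 and 20.0 CPM in WC1 and fell by 1.14 ± 0.11 log2 units (limma adjusted p = 0.013). Cebpb fell by 0.78 ± 0.08 (limma adjusted p = 0.014), from 70.5 and 73.6 to 39.6 and 43.8 CPM. Cebpa, the adipocyte C/EBP factor, was at 299 and 294 CPM in Ctrl compared with 321 and 352 CPM in WC1 and was not called (0.18 ± 0.08, limma adjusted p = 0.18). Among genes named after their values were seen, Socs3, a feedback inhibitor of interleukin-6 signalling, was lower (-0.85), as were Osm (-0.96) and Il1r1 (-0.78). Il6 itself was at 0.83 CPM or less and was not tested, and Il1b, Tnf and Stat3 were not called, with fold changes of -0.53, -0.42 and -0.18. The relation of this list to Saa3, Orm1, S100a8 and Hp was not tested. Of its 30 tested genes 22 were not called, beside the 1 called higher and the 7 called lower. Without Ctrl 1 or Ctrl 2, 0 of these 8 calls were kept.

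Receptors and binding partners of the 9 proteins gave 27 tested genes, of which 8 were called lower (29.6%, against 7.71%) and 0 higher. In limma 3 were higher and 12 lower at an unadjusted p under 0.05, edgeR called 0 and 8, and DESeq2 2 and 13. Hmox1, which degrades the heme of haemoglobin cleared with Hp, was at 937 and 965 CPM in Ctrl compared with 217 and 183 CPM in WC1 and fell by 2.25 ± 0.11 log2 units (limma adjusted p = 0.0044). Fcgr2b, an inhibitory Fc receptor of the kind that binds pentraxins, fell by 0.74 ± 0.09 (limma adjusted p = 0.016). Named after their values were seen, Tlr4, a receptor described for calprotectin, fell by 0.40 and Fpr2, a receptor of serum amyloid A, stood at 1.02 and 1.03 CPM in Ctrl compared with 0.295 and 0.381 CPM in WC1. Fpr2 passed the filter only through Ctrl, where it is high, and without it 7 of these calls are left. Cd163, the macrophage receptor of the haptoglobin-haemoglobin complex, was at 23.6 and 26.3 CPM in Ctrl compared with 29.5 and 35.4 CPM in WC1 and was not called (limma adjusted p = 0.091). Slc22a17, a receptor described for Lcn2, was not called either (0.06). C1qa, in this list, is also a macrophage marker. These 8 calls were lost without Ctrl 1 and without Ctrl 2 (0 of 8 kept), with Hmox1 at -2.27 and -2.23.

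The genes whose level over the 4 libraries was most like that of Wfdc17 were sought among 12565 named genes with a mean of at least 1 CPM, by the distance between centred log2(CPM + 1) profiles. The nearest was Hmox1 (distance 0.12), followed by Mrgprb1 (0.15), a mast cell receptor, Panx1 (0.17), a membrane channel, Slc7a11 (0.19), a cystine transporter, and Procr (0.20), the protein C receptor. Slc7a11 was at 9.58 and 9.27 CPM in Ctrl compared with 0.90 and 1.03 CPM in WC1. Panx1 was at 61.9 and 54.0 CPM in Ctrl compared with 10.7 and 9.72 CPM in WC1. Of 6 mast cell markers 5 were called lower, and their summed level was 398 and 436 CPM in Ctrl and 63.6 and 52.2 CPM in WC1. With 4 libraries the likeness means a difference of similar size on the log2(CPM + 1) scale, from -2.14 for Procr to -2.42 for Mrgprb1. That scale understates changes of low genes, and the ratios differed. Mean CPM was 9.75-fold lower in WC1 for Slc7a11 and 8.04-fold lower for Mrgprb1, compared with 4.99-fold for Wfdc17. Spread within groups was not low for every gene, with Procr at 84.7 and 71.3 CPM in Ctrl.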

How the data were processed

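RNA-seq of epididymal adipose tissue was analysed from 2 Ctrl and 2 WC1 libraries, grouped by their titles. The submitters' processing notes name fastp, HISAT2, StringTie and mm10; versions, annotation and the treatment of reads shared by related genes were not given in the sources used here. The authors deposited 2 matrices of 24421 genes. In the first, a signal the authors deposited as CPM, reads were divided by a rescaled library size (columns reach 97.6% to 105% of a plain CPM sum), and 100% of its values were whole reads to within 0.01. The second holds TPM as deposited by the authors, corrected for transcript length and scaled to equal sums.

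The 14106 genes that reached 0.5 CPM in 2 or more libraries were tested on log2(CPM + 1), which understates changes of low genes, by limma 3.58.1 with an abundance trend in R 4.3.3, with two-sided p-values adjusted by Benjamini-Hochberg across the tested genes and called under 0.05. edgeR 4.0.16 and DESeq2 1.42.0 on recovered reads, other pseudocounts, filters and scalings, TPM, a replicate block and leaving out each library were alternatives. Scripts were tested on simulated data. Loci and coding sequences came from GENCODE M21 (GRCm38) and promoters from RefSeq (GRCm38.p6).

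The 9 genes and the gene and marker lists were chosen with earlier results of these data known. Named genes were the 9, the 2 genes of each list with the smallest p, the 5 profiles nearest to Wfdc17, the nearest relatives and the defining cell markers, and others are marked as chosen after their values were seen. The neutrophil marker Ly6g was not analysed here. The gene called higher in the upstream list is not reported here by name.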

Additional observations from a re-analysis of the deposited data

How the results depend on the processing

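The 4 higher and 1 lower calls among the 9 genes were the same in number under both pseudocounts (0.5 and 2), the filter on 1 library, median-of-ratios scaling, quantile normalization, TPM, edgeR, DESeq2 and the replicate block. Without a filter on low values limma called 0 of them higher and 1 lower, with 4 and 2 at an unadjusted p under 0.05, and over the lists 3 genes higher and 12 lower, and 788 and 532 of all genes. More genes, 18132, were tested there. DESeq2 called 16 list genes higher, against 10, and 1736 of all genes lower, against 1088. In TPM 583 of all genes were lower and 77.9% of calls were higher, compared to 57.0%, and the median of all genes was 0.10 rather than -0.02. Of 35 called list genes, 29 kept their call there and 0 turned direction in any setting. The cause of these differences was not tested.

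With 1 library left out, its group is assumed to vary like the other. The number of the 9 genes called higher then ranged from 0 to 4 and called lower from 0 to 1, list genes from 0 to 21 higher and from 0 to 37 lower, all genes from 2 to 2424 higher and from 4 to 2748 lower, and the median fold change of the 8 tested genes from 0.37 to 0.82. The zero counts came without Ctrl 1 or Ctrl 2. Fold changes of Lcn2 ranged from -0.41 to 0.24 and were 0.05 in TPM, and those of Slpi ranged from -0.76 to 0.36. S100a9, tested only with the looser filters, had -0.41 in both. No other tested gene of the 9 turned direction in any of the 14 alternatives.

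Libraries carry the numbers 1 and 2 in each group, with no label to say whether equal numbers pair mice. The difference between libraries 1 and 2 correlated across genes with r = 0.19 between the groups, which does not show a pairing from only 2 pairs. In the fit with a replicate block, 4 of the 9 genes were called higher and 1 lower, 13 and 29 list genes, and 1769 and 1497 of all genes.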

Other observations

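Of 11 tested other antimicrobial genes, 1 was called higher (9.09%, against 10.2% of all genes) and 3 lower (27.3%, against 7.71%) by limma, and DESeq2 called 1 and 5. Rnase4 and Ang, secreted ribonucleases, fell by 0.75 ± 0.08 and 0.92 ± 0.15 log2 units (SE, limma adjusted p = 0.014 and 0.024), with Rnase4 at 291 and 296 CPM in Ctrl compared with 183 and 165 CPM in WC1. Named after its values were seen, Lyz2, the lysozyme of macrophages and also one of the macrophage markers above, was at 6190 and 5352 CPM in Ctrl compared with 2875 and 2048 CPM in WC1 (-1.25), and Adm (adrenomedullin) was higher (0.67).

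The lipocalin relatives of Lcn2 and Orm1 gave 3 tested genes. Rbp4, the retinol carrier and an adipokine, was at 69.8 and 86.2 CPM in Ctrl compared with 162 and 213 CPM in WC1 and rose by 1.25 ± 0.17 (SE, limma adjusted p = 0.019). Apod was at 20.8 and 26.1 CPM in Ctrl compared with 5.93 and 14.1 CPM in WC1 (limma adjusted p = 0.080). Of these 3 lipocalin genes limma and edgeR called 0 lower, while DESeq2 and the limma fit with a replicate block each called 1 lower. Among 4 tested relatives of Ptx3, limma called 0 and edgeR and DESeq2 called 1 higher. Nptx2 stood at 0.32 and 0.47 CPM in Ctrl compared with 2.44 and 1.06 CPM in WC1 and passed the filter only through WC1, where it is high, and Svep1 had a fold change of 0.20 (limma adjusted p = 0.14). At an unadjusted p under 0.05, 1 of the 4, Nptx2 itself, was higher in limma, and it was also the gene called by edgeR and DESeq2. None of the list calls named here, including Rbp4 (1.10 without Ctrl 1, 1.40 without Ctrl 2), was kept without Ctrl 1 or Ctrl 2 (0 of 35).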
